A study of Rattus norvegicus with 9 samples.

Results

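The genes of the molybdenum cofactor pathway and of the enzymes that use it were followed by their symbols, 8 out of 28935 genes in the count table: Mocs1, Mocs2, Gphn, Mocos, Aox1, Aox2, Xdh and Suox. The cells were ventricular myocytes (NRVMs) taken from newborn Sprague Dawley rats and cultured as primary cells, first with serum and then kept in serum-free medium with an adenovirus. The virus carried Nfya in 3 libraries, Nfe2l1 in 3 libraries and GFP, the negative control, in 3 libraries. Sprague Dawley is an outbred laboratory strain, and all 9 libraries carry an adenovirus, so no uninfected cells serve as a baseline. NFYA is the regulatory DNA-binding subunit of the CCAAT-box factor NF-Y, and NFE2L1 is a cap'n'collar transcription factor, known as a regulator of proteasome genes. The family was selected on its log2 fold changes between these same virus groups, which were known from earlier results. Counts, RPKM values and differences between the virus groups are therefore given as a description, and no p-value is printed for them.

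The molybdenum cofactor is a pterin that holds molybdenum in the active site of a small group of enzymes. MOCS1 starts its synthesis from GTP, MOCS2 forms the subunits of the synthase that adds the paired sulfurs, and gephyrin (Gphn) inserts the metal. MOCOS, the cofactor sulfurase, then adds a last sulfur that aldehyde oxidases and xanthine dehydrogenase need but sulfite oxidase does not. Xanthine dehydrogenase (Xdh) makes uric acid at the end of purine breakdown, the aldehyde oxidases (Aox1 and Aox2) oxidise aldehydes and nitrogen heterocycles, and mitochondrial sulfite oxidase (Suox) removes toxic sulfite. Gephyrin is also the scaffold of inhibitory synapses in the nervous system.

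Library totals ran from 5712123 to 7310774 counts, and 14151 genes, all of the named 8 among them, had enough counts to be tested. Aox2 passed this filter only through the Nfe2l1-labelled libraries, so it had to be higher there than in the other groups to be tested, and it was not tested when only the Nfya-labelled and GFP libraries were fitted. The counts under the symbols of the factors differed little between groups. The labels do not give the species of the virus-borne sequences, so these counts need not measure the virus transcripts. Nfya averaged 89.0 ± 0.683 CPM in Nfya-labelled, 92.3 ± 2.20 CPM in Nfe2l1-labelled and 80.4 ± 2.19 CPM in GFP libraries (CPM, counts relative to a TMM-scaled library size; SD, n = 3 each), and Nfe2l1 averaged 223 ± 4.79, 239 ± 6.14 and 241 ± 6.09 CPM in the same groups. Nfya was called slightly higher than in GFP with either virus (log2 fold changes of 0.15 and 0.20), and Nfe2l1 was not called in the Nfe2l1-labelled libraries (-0.00745). Groups are therefore named by their labels. The 3 Nfya-labelled libraries differed from each other by no more than counting noise (chi-square over degrees of freedom from 0.969 to 1.00, p-values of 0.996, 0.370 and 0.801), whereas every pair within the other groups differed by more (1.06 to 1.67). The labels do not say whether replicates came from separate cultures, so the spread in each group may be technical. With the 3 Nfya-labelled libraries summed into 1 sample, an alternative added after the data were seen, the same members were called in each comparison. The spread in that fit came only from the Nfe2l1-labelled and GFP libraries, and the lone sample was assumed to vary like them. Here called means an adjusted p below 0.05 over all tested genes in edgeR's quasi-likelihood test.

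In the Nfe2l1-labelled libraries the sulfurase gene Mocos was 18.2-fold, Aox2 13.8-fold, Aox1 8.74-fold and Xdh 2.22-fold above GFP. Mocs1 and Mocs2 were also higher, and Suox and Gphn were lower. Of the 8 genes 6 were called higher and 2 lower, where 28.9% of all tested genes were called higher and 29.7% lower. Aox2 is among the 6, although it was tested only because of its higher counts in these libraries. At a minimum mean of 5 CPM, which left Aox2 untested, 5 were called higher and 2 lower, where 60.9% of all tested genes were called either way. In the Nfya-labelled libraries 4 were called higher than in GFP and 2 lower, where 24.3% and 27.9% of all genes were called in these directions, and the largest rise, of Mocos, was 2.35-fold. These calls rest on contrasts that were known when the genes were chosen. The median log2 fold change of the 8 genes, Aox2 included, was 0.32 for Nfya against GFP and 1.02 for Nfe2l1 against GFP. Over all genes tested it was -0.02 and -0.0066. Both comparisons share the GFP libraries.

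**Figure D1:**
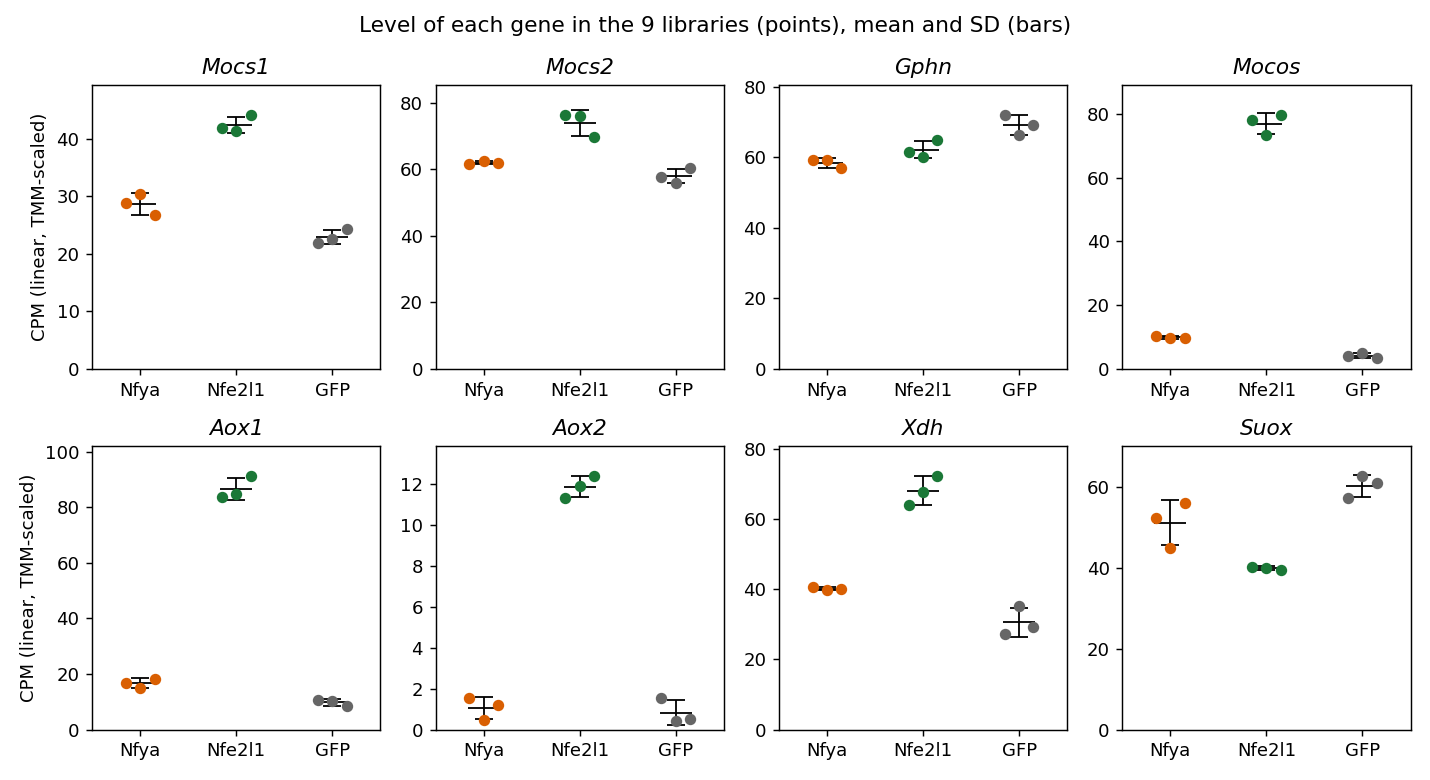
Level of each of the 8 genes in CPM (linear axis from 0) in the Nfya-labelled, Nfe2l1-labelled and GFP libraries; points are libraries, the horizontal bar is the mean and the whiskers are the SD (n = 3). Mocos, Aox1 and Aox2 stand far higher in the Nfe2l1-labelled libraries than elsewhere, for Mocos between 73.2 and 79.5 CPM, whereas Suox and Gphn are highest in GFP.

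Among the genes that build the cofactor, Mocs1, which carries out its first steps, stood at 28.8, 30.4 and 26.7 CPM in Nfya-labelled replicates 1 to 3, at 41.8, 41.4 and 44.0 CPM in Nfe2l1-labelled replicates and at 21.9, 22.6 and 24.2 CPM in GFP replicates. The groups did not overlap, with the Nfe2l1-labelled libraries highest and GFP lowest. The log2 fold change was 0.32 ± 0.09 (SE) for Nfya against GFP and 0.89 ± 0.09 for Nfe2l1 against GFP, both called higher. The SE here is the larger of that derived from the test and the counting error.

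Mocs2, the synthase gene, changed less. It had 61.5, 62.5 and 61.9 CPM in Nfya-labelled, 76.2, 76.0 and 69.5 CPM in Nfe2l1-labelled and 57.6, 56.0 and 60.3 CPM in GFP libraries. The 3 groups again lay in the same order without overlap, with Nfya-labelled close to GFP. Mocs2 was called higher in Nfe2l1-labelled libraries (0.35 ± 0.06) and not in Nfya-labelled ones (0.10 ± 0.06), where 5 of 18 alternatives did call it, among them the fits without Nfe2l1 replicate 3 (0.13) and with only the 6 libraries compared (0.13). In human cells MOCS1 and MOCS2 each code for more than 1 protein product, and a count per gene does not separate them.

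Gphn, the gephyrin gene, went the other way. Its levels were 59.3, 59.1 and 56.8 CPM in Nfya-labelled, 61.6, 60.0 and 64.8 CPM in Nfe2l1-labelled and 71.9, 66.3 and 69.0 CPM in GFP libraries. All 6 libraries with a factor virus lay below all GFP libraries. The log2 fold change was -0.24 ± 0.06 for Nfya against GFP and -0.15 ± 0.06 for Nfe2l1 against GFP. Both were called lower, but the second call was lost with DESeq2, with no filter on low counts, and without GFP replicate 1 (-0.11), Nfe2l1 replicate 1 (-0.12) or Nfe2l1 replicate 2 (-0.12).

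Mocos had the widest range of group means on the log2 scale among the 8 genes. It had 68, 63 and 66 counts in Nfya-labelled, 501, 467 and 583 counts in Nfe2l1-labelled and 26, 34 and 20 counts in GFP libraries. This corresponds to 10.4, 9.57 and 9.84 CPM, to 77.9, 73.2 and 79.5 CPM and to 3.98, 5.02 and 3.54 CPM. Every Nfya-labelled library lay above every GFP library, and every Nfe2l1-labelled library lay far above both. The log2 fold change was 1.23 ± 0.19 for Nfya against GFP and 4.18 ± 0.17 for Nfe2l1 against GFP, where its rise ranked 46th among the 14151 genes. Of the 8 genes, 4 were both called and changed at least 2-fold in Nfe2l1-labelled libraries against GFP, where 12.2% of all genes did so, and 1 in Nfya-labelled libraries, where 9.87% did. The 4 include Aox2, which was tested only because of its counts in the Nfe2l1-labelled libraries.

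Aox1, the main aldehyde oxidase gene, had 16.9, 14.9 and 18.3 CPM in Nfya-labelled, 83.8, 85.0 and 91.2 CPM in Nfe2l1-labelled and 10.6, 10.5 and 8.49 CPM in GFP libraries. The groups did not overlap and lay in the same order as for Mocos. Its log2 fold change was 0.75 ± 0.13 for Nfya against GFP and 3.13 ± 0.11 for Nfe2l1 against GFP. Aox2, a paralog in the same gene cluster, had few counts outside the Nfe2l1-labelled libraries. It had 10, 3 and 8 counts in Nfya-labelled, 73, 76 and 91 counts in Nfe2l1-labelled and 10, 3 and 3 counts in GFP libraries. Nfya-labelled and GFP libraries overlapped, and their log2 fold change of 0.32 ± 0.50 turned to -0.027 without Nfya replicate 1. Against GFP, the Nfe2l1-labelled libraries were higher by 3.79 ± 0.37, a size that ran from 1.64 on the log2(RPKM + 1) scale, where the pseudocount exceeds the GFP level, to 4.58 without GFP replicate 1.

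The other 2 aldehyde oxidase paralogs of the rat cluster had too few counts to be tested. Aox3 had 8, 12 and 7 counts in Nfya-labelled, 4, 6 and 2 counts in Nfe2l1-labelled and 2, 4 and 1 counts in GFP libraries. Its Nfya-labelled libraries lay above those of both other groups, unlike those of Aox2. Aox4 had no more than 2 counts in any library. How reads that fit several paralogs were counted is not given in the sources used here, so the split of counts among the Aox genes is uncertain.

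Xdh had 40.6, 39.8 and 40.1 CPM in Nfya-labelled, 64.1, 67.9 and 72.3 CPM in Nfe2l1-labelled and 27.3, 35.2 and 29.2 CPM in GFP libraries. The groups did not overlap, and the log2 fold change was 0.39 ± 0.08 for Nfya against GFP and 1.15 ± 0.07 for Nfe2l1 against GFP. Suox was the only 1 of the 4 enzyme genes that was lower with either virus. It had 52.4, 45.0 and 55.9 CPM in Nfya-labelled, 40.3, 40.0 and 39.4 CPM in Nfe2l1-labelled and 57.1, 62.6 and 60.9 CPM in GFP libraries. It was called lower by 0.60 ± 0.07 in Nfe2l1-labelled libraries on the log2 scale (log2 fold change -0.60) and by less in Nfya-labelled ones (-0.24 ± 0.06), where the call was lost without GFP replicate 2 (-0.17) or Nfya replicate 2 (-0.15).

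**Figure D2:**
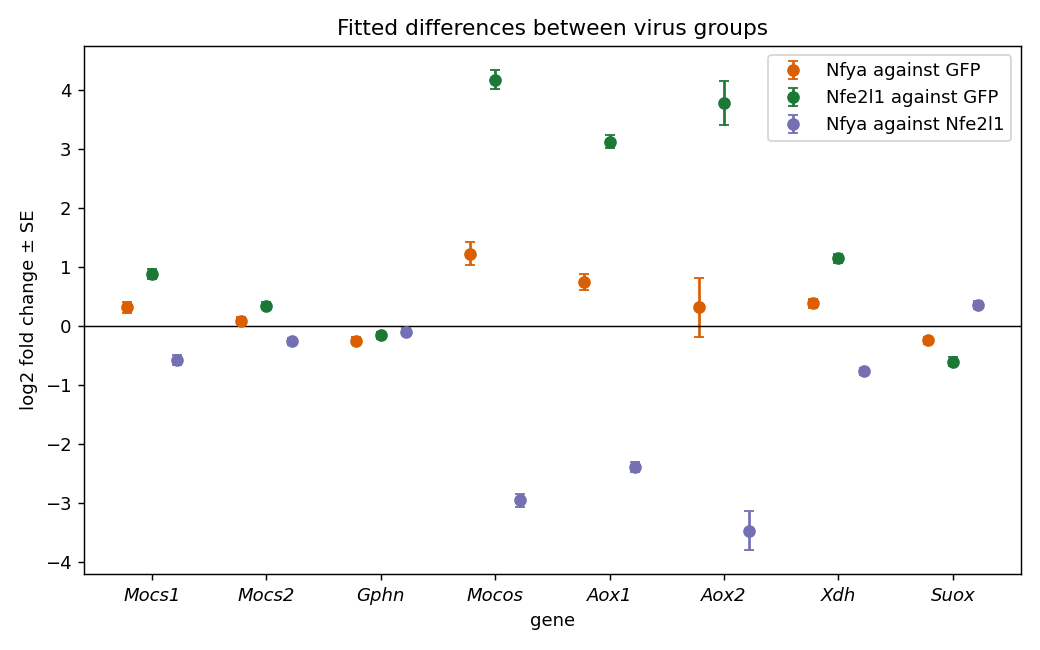
Log2 fold change with SE (vertical axis) of each of the 8 genes (horizontal axis) for each virus against GFP and for Nfya against Nfe2l1. The values of Nfe2l1 against GFP for Mocos, Aox1 and Aox2 lie between 3.13 and 4.18, Xdh, Mocs1 and Mocs2 lie lower, and Gphn and Suox lie below 0.

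Set directly against the Nfe2l1-labelled libraries, the Nfya-labelled ones had 6 of the 8 genes called lower and Suox called higher, where 25.4% and 25.2% of all genes were called in these directions (50.6% either way). Of these, 3 also differed at least 2-fold, where 6.77% of all genes did. The log2 fold change was -3.47 ± 0.33 for Aox2, -2.95 ± 0.11 for Mocos, -2.38 ± 0.09 for Aox1, -0.76 ± 0.07 for Xdh, -0.57 ± 0.08 for Mocs1 and -0.25 ± 0.06 for Mocs2. For Suox it was 0.36 ± 0.07. For Gphn it was -0.09 ± 0.06, which was not called. The median over the 8 genes was -0.67, beside 0.00910 over all genes tested. Against GFP, Nfya-labelled libraries did not overlap for 7 of the 8 genes (61.6% of all tested genes), 5 of them higher (28.4%) and 2 lower (33.2%). For Nfe2l1 and GFP this held for all 8 (64.0%), 6 higher (31.7%) and 2 lower (32.4%). Nfya- and Nfe2l1-labelled libraries did not overlap for any of the 8 (60.0% of all tested genes), with 1 gene higher in Nfya (30.3%) and 7 lower (29.7%). Aox2 is counted among the 8 throughout, though it was tested only because of its counts in the Nfe2l1-labelled libraries. At a minimum mean of 5 CPM, which left it untested, 5 genes were called lower and 1 higher for Nfya against Nfe2l1. At that setting 54.6% of all tested genes were called either way.

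Levels of different genes were compared as RPKM, the authors' counts per kilobase of gene length and sequencing depth. In the Nfya-labelled libraries the order was Mocs2 (39.3 ± 0.302 RPKM, SD, n = 3), Suox (23.5 ± 2.58), Gphn (19.3 ± 0.453), Mocs1 (18.3 ± 1.18), Xdh (8.51 ± 0.0888), Aox1 (3.40 ± 0.352), Mocos (2.75 ± 0.123) and Aox2 (0.243 ± 0.127). Only the neighbours Gphn and Mocs1 overlapped in it. In the Nfe2l1-labelled libraries Mocs2 (46.2 ± 1.97 RPKM) and Mocs1 (26.7 ± 1.18) were followed by Mocos (21.0 ± 1.11), Gphn (20.2 ± 0.983), Suox (18.1 ± 0.127), Aox1 (17.4 ± 0.993), Xdh (14.2 ± 0.975) and Aox2 (2.72 ± 0.166). There Mocos overlapped with Gphn, and Suox with Aox1. In GFP libraries the order was Mocs2 (36.4 ± 1.22 RPKM), Suox (27.4 ± 1.27), Gphn (22.5 ± 0.908), Mocs1 (14.5 ± 0.714), Xdh (6.40 ± 0.868), Aox1 (1.99 ± 0.223), Mocos (1.16 ± 0.186) and Aox2 (0.197 ± 0.135), and no neighbours overlapped.

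The control myocytes held transcripts for the cofactor's synthesis and for sulfite oxidase well above those for the sulfurase and the aldehyde oxidases. Of the summed RPKM of the 4 enzyme genes, Suox held 65.8 ± 1.596% in Nfya-labelled, 34.5 ± 1.45% in Nfe2l1-labelled and 76.1 ± 1.31% in GFP libraries (SD, n = 3 each). The sum itself was 35.6 ± 3.09, 52.5 ± 2.05 and 36.0 ± 2.00 RPKM in these groups. A share therefore also moves with the levels of the other enzyme genes. Aox1 held 9.52 ± 0.207% in Nfya-labelled, 33.2 ± 0.605% in Nfe2l1-labelled and 5.55 ± 0.666% in GFP libraries. Mocos transcripts per Gphn transcript, as a ratio of RPKM, were 0.143 ± 0.00614 in Nfya-labelled, 1.04 ± 0.0200 in Nfe2l1-labelled and 0.0516 ± 0.00991 in GFP libraries.

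**Figure D3:**
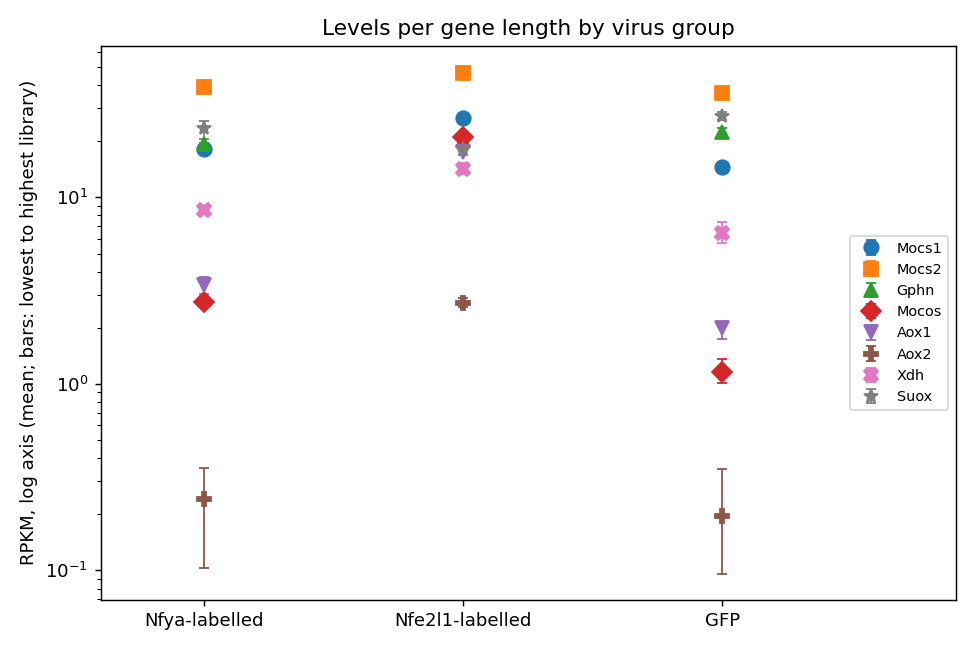
Mean RPKM (logarithmic axis) of the 8 genes in the Nfya-labelled, Nfe2l1-labelled and GFP libraries; whiskers run from the lowest to the highest of 3 libraries. In the Nfe2l1-labelled libraries 7 of the genes lie between 14.2 and 46.2 RPKM, whereas in GFP they spread from 1.16 to 36.4 RPKM, with Aox2 lowest in every group.

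The promoters of Mocos and Aox1, well-counted genes with the largest rises, and of Mocs2, which held the most matches to the motifs searched, are shown so that the letters can be read beside these values. Each is the stretch of 250 bases before the annotated transcript start in RefSeq, build GRCr8, 5′ to 3′ on the gene's strand. All 8 genes had an entry. Capitals mark matches to TGACNNNGC (the core of elements bound by cap'n'collar and small Maf proteins) or TGANTCA (the AP-1 core), which can overlap.
Mocos, chr18:16206152-16206401, + strand: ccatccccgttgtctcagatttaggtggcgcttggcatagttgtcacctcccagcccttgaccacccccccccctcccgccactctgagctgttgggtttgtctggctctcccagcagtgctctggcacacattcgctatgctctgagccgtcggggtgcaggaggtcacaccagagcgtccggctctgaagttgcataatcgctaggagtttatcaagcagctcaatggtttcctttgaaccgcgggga
Aox1, chr9:67073641-67073890, + strand: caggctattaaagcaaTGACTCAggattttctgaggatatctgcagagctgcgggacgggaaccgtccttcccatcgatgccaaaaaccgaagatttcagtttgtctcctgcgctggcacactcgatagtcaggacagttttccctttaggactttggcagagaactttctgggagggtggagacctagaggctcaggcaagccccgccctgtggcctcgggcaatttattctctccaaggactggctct
Mocs2, chr2:48237405-48237654, + strand: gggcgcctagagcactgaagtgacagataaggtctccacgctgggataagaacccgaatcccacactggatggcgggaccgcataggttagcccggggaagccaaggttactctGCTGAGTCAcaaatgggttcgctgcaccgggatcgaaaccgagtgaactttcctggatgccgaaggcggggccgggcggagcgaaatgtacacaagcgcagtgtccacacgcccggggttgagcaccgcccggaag

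The search covered 250 bases before and 50 after the start on both strands. TGACNNNGC was found in 1 of the 8 promoters, that of Mocs2, and in 12.1% of 33469 RefSeq promoters of the same 300 bases. In Mocs2 its reverse complement begins 136 bases before the start and overlaps a TGANTCA match that begins 134 bases before it. TGANTCA was found in 2 of the 8, Mocs2 and Aox1, and in 7.33% of all promoters. The NF-Y core CCAAT was found in 2 of the 8, Xdh and Mocs1, beginning 78 and 65 bases before the start on the opposite strand, and in 37.5% of all promoters. These letters were not found in the 300-base window of Mocos, whose level differed most between groups. A match is only a string of letters, and the count files were made on an older annotation, so the transcript starts used in these cells may differ.

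Other genes around the pathway were taken from 8 lists, drawn up with earlier results known. Of 77 such genes that were counted, 65 were tested. In Nfya-labelled libraries 16 rose and 19 fell against GFP (35 called, 53.8%, where 52.2% of all genes were called either way). In Nfe2l1-labelled libraries 19 rose and 22 fell (41 called, 63.1%, where 58.6% of all genes were called either way). These shares lie near those of all genes, and the medians were -0.02 and 0.02. For each list below, the shares of all tested genes called higher and lower were 24.3% and 27.9% with Nfya. With Nfe2l1 they were 28.9% and 29.7%.

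**Figure D4:**
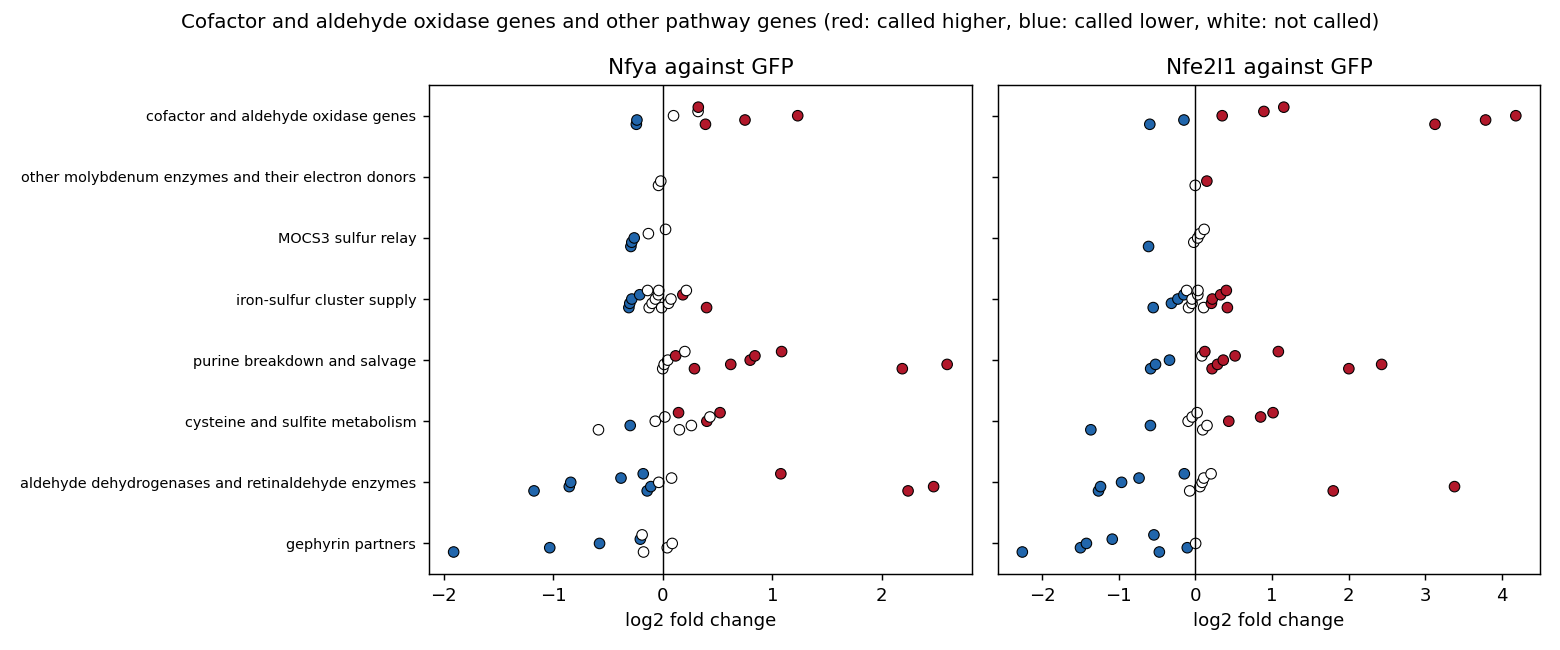
Log2 fold change (horizontal axis) of each tested gene, by list (vertical axis), for Nfya against GFP (left) and Nfe2l1 against GFP (right); red points were called higher, blue points lower and white points not called, and the scales of the panels differ. In the purine list 8 genes were called higher on each side, where 24.3% and 28.9% of all tested genes were called higher. Among tested gephyrin partners 4 and 7 were called lower and none higher, where 27.9% and 29.7% of all tested genes were called lower.

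Against GFP, the sulfur donor of the synthase did not follow Mocs2. Mocs3, which passes sulfur to MOCS2 and to tRNA modification, fell in Nfya-labelled libraries (log2 fold change -0.29 ± 0.09) and was not called in Nfe2l1-labelled ones (0.06 ± 0.08). For Nfya against Nfe2l1, both genes were called lower, Mocs3 at -0.35 ± 0.08 and Mocs2 at -0.25 ± 0.06. Of the 5 genes of this sulfur relay 3 fell with Nfya and 1 with Nfe2l1, and Ctu1, a tRNA thiolation enzyme, was among them both times (-0.28 ± 0.11 and -0.61 ± 0.11). Of 16 tested genes of iron-sulfur cluster supply, on which MOCS1, xanthine dehydrogenase and the aldehyde oxidases depend, 2 rose and 4 fell with Nfya, and 5 rose and 4 fell with Nfe2l1. Mms19, a cluster targeting factor, rose with either virus (0.40 ± 0.06 for both). Cyb5r3, a reductase that serves another class of molybdenum enzyme, rose with Nfe2l1 by 0.15 ± 0.04, though its libraries overlapped with GFP.

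Purine breakdown and salvage, the route that leads to xanthine dehydrogenase, had 12 tested genes. With Nfya 8 rose and none fell, where 24.3% of all tested genes rose and 27.9% fell. With Nfe2l1 8 rose and 3 fell, where 28.9% rose and 29.7% fell. Gda, the guanine deaminase that makes xanthine, averaged 29.1 ± 0.738 CPM in Nfya-labelled, 19.2 ± 1.94 CPM in Nfe2l1-labelled and 4.72 ± 1.45 CPM in GFP libraries (SD, n = 3 each). Slc2a9, a urate transporter gene, averaged 19.5 ± 0.866, 23.2 ± 1.08 and 4.28 ± 0.455 CPM in the same groups. Pnp, whose enzyme releases guanine and hypoxanthine, rose by 0.62 ± 0.07 with Nfya and 1.08 ± 0.07 with Nfe2l1, and Nt5e, the ectonucleotidase CD73, by 0.80 ± 0.06 and 0.29 ± 0.06. Gda and Nt5e were higher in Nfya- than in Nfe2l1-labelled libraries, the reverse of Xdh. The 3 genes that fell with Nfe2l1, named after their values were seen, were Slc29a1 (-0.58 ± 0.10), Ampd2 (-0.52 ± 0.06) and Abcg2 (-0.34 ± 0.14). Of these, Abcg2 rose with Nfya (0.84 ± 0.12). Hprt1, a salvage gene that all cells use, stood at 0.0511 CPM in Nfya-labelled, 0.156 CPM in Nfe2l1-labelled and 0.108 CPM in GFP libraries, so a near-zero count in this table does not show that a gene is silent.

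Among 10 tested genes of cysteine and sulfite metabolism, the route that feeds sulfite oxidase, 3 rose and 1 fell with Nfya, and 3 rose and 2 fell with Nfe2l1. Sqor, the mitochondrial sulfide oxidase, averaged 57.1 ± 1.77 CPM in Nfya-labelled, 87.4 ± 2.99 CPM in Nfe2l1-labelled and 43.2 ± 1.11 CPM in GFP libraries. Ethe1, the persulfide dioxygenase that produces sulfite, rose with Nfe2l1 (0.85 ± 0.10) and was not called with Nfya (0.26 ± 0.11). Csad, an enzyme of taurine synthesis, rose with Nfe2l1 by 0.44 ± 0.07. Tst, a sulfurtransferase gene, fell with Nfya (-0.30 ± 0.06) and was not called with Nfe2l1 (-0.09 ± 0.06). The 2 genes that fell with Nfe2l1, named after their values were seen, were Cbs (-1.36 ± 0.38), whose enzyme makes cystathionine, and Cdo1 (-0.59 ± 0.12), the cysteine dioxygenase gene.

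Of 12 aldehyde dehydrogenase and retinaldehyde genes, whose substrates aldehyde oxidases share, 3 rose and 7 fell with Nfya, and 2 rose and 5 fell with Nfe2l1. Aldh1a3, a retinoic acid synthesis enzyme, rose by 2.24 ± 0.11 and 1.80 ± 0.11, while Aldh1a2, another such enzyme, fell with either virus (-0.38 ± 0.09 and -0.96 ± 0.10). Dhrs3 and Rdh10, which interconvert retinol and retinaldehyde, also fell with both. Aldh3a1, chosen for mention after its values were seen, averaged 5.63 CPM in Nfya-labelled, 10.6 CPM in Nfe2l1-labelled and 0.984 CPM in GFP libraries, and its log2 fold change of 3.38 ± 0.35 for Nfe2l1 against GFP was the largest of this list.

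The partners of gephyrin at inhibitory synapses were tested for 8 of 15 genes, and the glycine receptor subunits were below the count needed. With Nfya 4 fell, with Nfe2l1 7 fell, and none rose, where 27.9% and 29.7% of all tested genes fell. Gabrb2, a GABA receptor gene, fell with either virus (-1.03 ± 0.14 and -1.09 ± 0.15), as did Gabra2, another such gene (-1.91 ± 0.31 and -1.42 ± 0.28).

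Genes whose pattern over the 9 libraries was most like that of the members with the widest ranges were ranked by Pearson's r of log2 CPM among 11941 genes with a mean of at least 5 CPM. Nearest to Mocos were Pafah2 (r = 0.997), Trip11 (0.997), LOC691995 (0.996), Clip2 (0.996) and Aox1 (0.996). Nearest to Aox2 were Rpain (0.991), Zfp770 (0.989), Sbf2 (0.986), Igsf11 (0.986) and Slc1a4 (0.986). The points share the 3 virus groups, so r mostly reflects the spacing of group means and not the size of the change. Trip11, for example, averaged 271 CPM in Nfya-labelled, 321 CPM in Nfe2l1-labelled and 255 CPM in GFP libraries.

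Several lists of cell type markers differed between the virus groups too. Against GFP, 24.3% of all tested genes were called higher and 27.9% lower with Nfya, and 28.9% and 29.7% with Nfe2l1. Of the 8 cardiomyocyte markers, all present, 3 were called higher and none lower with Nfya, and none was called with Nfe2l1. These 8 summed to 3007 to 3050 CPM in Nfya-labelled, 2709 to 2987 CPM in Nfe2l1-labelled and 2774 to 3084 CPM in GFP libraries. All 8 fibroblast markers rose with either virus, and their sum was 1931 to 1952, 1628 to 1757 and 1030 to 1099 CPM in the same groups. Of 7 endothelial markers measured, the cell type in which xanthine dehydrogenase is well known, 5 rose and 1 fell with either virus (sums of 371 to 389, 410 to 430 and 287 to 301 CPM). The 5 epicardial and mesothelial markers also all rose (75.1 to 87.7, 95.3 to 114 and 17.7 to 25.0 CPM). Smooth muscle and pericyte markers summed to 912 to 930, 617 to 634 and 843 to 851 CPM, macrophage markers to 62.5 to 73.9, 79.5 to 87.5 and 47.9 to 62.2 CPM, and neural markers to 23.1 to 28.05, 41.2 to 43.2 and 19.3 to 19.9 CPM. Of 5 tested smooth muscle markers 3 rose and 1 fell with Nfya, and 1 rose and 3 fell with Nfe2l1. Of 5 tested macrophage markers 4 rose and 1 fell with Nfya, and 3 rose and none fell with Nfe2l1. Of 2 tested neural markers 1 rose with Nfya and 2 with Nfe2l1. The 4 adipocyte markers summed to under 2 CPM in every library, and none of the listed markers measured was at 0 throughout. The part of these cell types in the levels of the 8 genes was not tested. In such bulk libraries, fewer cells of a type and less RNA per cell cannot be told apart.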

How the data were processed

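The 9 libraries were stranded mRNA libraries, per the labels' protocols. The authors deposited whole-number counts per gene symbol, RPKM values with the gene length in bases, and an edgeR table for each factor virus against GFP, whose logFC and logCPM are log2 values deposited by the authors, whose LR is a likelihood ratio score per the file headers, and whose p-values were deposited by the authors. The submitters' processing notes name edgeR 3.20.5, FastQC 0.11.4 and featureCounts 1.6.0, with the genome builds GRCm38, rn6 and mm10. Aligner, strand setting and handling of reads shared by paralogs: not given in the sources used here. Without the strand setting, reads of the members cannot be told from those of any gene that overlaps them on the other strand. In RefSeq (GRCr8) Aox1, Aox2 and Mocs1 each overlapped 1 other gene and Gphn overlapped 6, with strands not compared. Mocos, Xdh, Suox and Mocs2 overlapped none.

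Tests used edgeR 4.0.16 (R 4.3.3) on the counts, with filterByExpr, TMM scaling and quasi-likelihood F tests. One model with a term for virus group covered the 9 libraries, and p-values were adjusted by Benjamini-Hochberg over 14151 genes. The fit was tested on simulated data with changes of known size. DESeq2 1.42.0, limma 3.58.1 on log2 RPKM with pseudocounts of 0.1 and 1, other filters and scaling, a replicate block and leaving out each library were alternatives. Members, lists and tests were chosen with earlier results of these data known. All 8 members were named, and up to 4 called genes per list with the smallest p. Some genes that this rule names are not reported here. Counting depth limits precision for genes such as Aox2. The members held at most 0.321 counts per base of gene length. RefSeq (GRCr8) served only for promoters, gene order, gene overlaps and names. Of 82 pathway genes listed 77 were found by symbol, and Aox3l1 is an older name of Aox2. No column went unused for want of a sample (0).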

Additional observations from a re-analysis of the deposited data

How the results depend on the processing

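The 8 genes gave 24 log2 fold changes over 3 comparisons, and of 428 values under 18 alternatives 415 kept both direction and call, 7 lost the call, 5 gained it and 1 changed sign. The sign change was that of Aox2 for Nfya against GFP, at -0.027 without Nfya replicate 1 and up to 1.13 without GFP replicate 1; it was not called in any alternative that tested it. The calls that changed were those of Gphn, Suox and Mocs2, named with their values above. Fits without a library held fewer samples, and the cause of the changed calls was not tested. The count of members called ran from 5 to 7 for Nfya against GFP, from 7 to 8 for Nfe2l1 against GFP and from 6 to 7 for Nfya against Nfe2l1, with Aox2 left untested at a minimum mean of 5 CPM and, for Nfya against GFP, in the fit of only the 6 libraries compared. Over the fits at an adjusted p below 0.05, the share of all tested genes called varied too. It ran from 34.2% to 53.2%, 39.7% to 60.9% and 32.5% to 54.6% in the same order of comparisons. Pathway genes called ran from 27 to 39, 37 to 47 and 29 to 38 in these comparisons. DESeq2, which tested more genes, called 5815 of 16981 genes (34.2%) for Nfya against GFP, where edgeR called 7386 of 14151 (52.2%). Leaving out each library gave 5 to 7, 7 to 8 and 7 members called, and 31 to 38, 37 to 41 and 30 to 38 pathway genes. In those fits 46.1% to 52.1%, 53.7% to 58.0% and 44.6% to 51.2% of all tested genes were called. No pairing of libraries by replicate number was seen. Deviations of libraries with the same number correlated from -0.384 to 0.0719, and those with different numbers from -0.207 to 0.305. Of 9 libraries, 1 correlated best with its own number in both other groups. The Nfya-labelled libraries differed by no more than counting noise, so this check could hardly detect a pairing that involves them. With the replicate block 6, 8 and 7 members were called, as without it, and 34, 41 and 37 pathway genes. That fit called 51.0%, 57.5% and 49.0% of all tested genes. In the authors' deposited table the log2 fold change of Mocos was 1.27 for Nfya and 4.18 for Nfe2l1.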

Other observations

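The genes next to the 8 genes on the chromosome were looked at as well. The nearest tested gene on each side of each member in the RefSeq order (GRCr8), a choice made after the data were seen, gave 14 different genes. With Nfya 5 rose and 4 fell against GFP, and with Nfe2l1 2 rose and 8 fell, with log2 fold changes from -2.10 to 0.73 for Nfe2l1. Of all tested genes 24.3% rose and 27.9% fell with Nfya, and 28.9% rose and 29.7% fell with Nfe2l1. Sgo2 and Bzw1, which flank the aldehyde oxidase cluster, stood at -0.33 ± 0.14 and -0.20 ± 0.04 in Nfe2l1-labelled libraries against GFP (SE derived from the test), whereas Aox1 stood at 3.13. Elp2 and Fhod3, beside Mocos, stood at 0.12 ± 0.05 and 0.17 ± 0.03. Ikzf4, beside Suox, had the lowest value of the 14 in that comparison, and Fst, the follistatin gene beside Mocs2, the highest. In Nfya-labelled libraries Sgo2 (1.02 ± 0.11), Fst (1.46 ± 0.08) and Itga2 (1.07 ± 0.17) rose against GFP, each by more than the member beside it.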
